A study of Bos taurus with 19 samples.

Results

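The small heat shock proteins and the HSP90 and HSP70 chaperones were followed in the bovine theca interna, the vascular inner layer of the follicle wall and the source of its androgens. The members were 10 genes, CRYAB, HSPB1, HSPB2, HSPB6, HSPB8, HSP90AA1, HSP90AB1, HSPA1A, HSPA8 and HSPA5, and every probe set whose only gene symbol in the array annotation was 1 of these names was used. This gave 19 probe sets of the 24127 on the array, or 10 of 9155 annotated genes. RNA of single follicles from non-pregnant heifers at slaughter was hybridised to 1-colour Affymetrix bovine arrays once the granulosa cells had been scraped off. There were 4 large healthy follicles of over 9 mm, 5 small atretic follicles of 3 to 5 mm, and 10 small healthy follicles of the same diameter, whose basal granulosa cells were rounded in 5 and columnar in 5. Atretic follicles are those that degenerate instead of ovulating. The large arrays are referred to as large 1 to 4, and the other groups likewise.

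Chaperones hold unfolded proteins and help them reach or regain their shape. The small heat shock proteins, of which CRYAB (αB-crystallin) and HSPB1 (HSP27) are the best known, bind unfolded chains without using ATP and are abundant in muscle and other contractile cells. HSPA1A and HSPA8 are the stress-induced and the constitutive HSP70 of the cytosol, HSP90AA1 and HSP90AB1 the inducible and the constitutive HSP90, and HSPA5 (BiP) the HSP70 of the endoplasmic reticulum, where it also keeps the sensors of the unfolded protein response silent. In the ovary HSP90 is known for holding steroid receptors in the form that binds hormone. In the bovine assembly ARS-UCD2.0, CRYAB and HSPB2 are direct neighbours on chromosome 15, and HSPA1A lies beside HSPA1L on chromosome 23.

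The unit throughout is the log2 signal of a probe set, so a difference of 1 is a 2-fold change, and the signals of different probe sets are not comparable with one another. A probe set entered the test if 1 follicle type of the comparison had signals over 3 on 50% or more of its arrays. Of the 19 member probe sets, 18 met this in each comparison. The other, 1 of 3 for HSPA5 (Bt.29939.1.S1_at), had signals of 2.5, 3.3, 2.9 and 2.7 in large, 2.1 to 2.6 in small atretic and 2.6 to 2.9 in small healthy follicles. A probe set passed at an adjusted p under 0.05 (limma, Benjamini-Hochberg over all tested probe sets), and was called where it also changed at least 2-fold. Follicle type and RNA preparation cannot be told apart, since the sample records give a separate extraction kit for each of the large, small healthy and small atretic follicles and less RNA for labelling of the atretic ones. Poly-A control transcripts, added before labelling, averaged 5.88 ± 0.28 (SD, n = 4) on large, 4.78 ± 0.32 (SD, n = 5) on atretic and 4.57 ± 0.22 (SD, n = 10) on small healthy arrays. The GAPDH 3′ minus 5′ signal, a sign of RNA integrity, lay between 0.3 and 0.6 on every array. The same measure for actin spread more widely, from 0.8 to 1.7 on large, 0.7 to 1.8 on atretic and 1.0 to 2.2 on small healthy arrays. In whole tissue, fewer cells of a type and less RNA per cell cannot be told apart.

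In large follicles 3 of the 5 small heat shock protein genes, CRYAB, HSPB8 and HSPB2, were higher than in small healthy follicles, and their signals did not overlap with those of any small healthy follicle. Among all members 4 of 18 tested probe sets passed, each of them higher in large follicles, beside 557 of 15570 probe sets on the array (3.58%) and 404 higher ones (2.59%). Of these 4 members 3 were also called, beside 98 higher calls on the array (0.629%), and 170 probe sets on the array (1.09%) lay above all small healthy follicles without overlap. The median log2 difference was -0.05 over the 18 member probe sets and -0.005 over all probe sets. The study itself had put CRYAB, HSPB8 and HSP90AA1 among its changed genes on these same arrays, so their direction here is not independent evidence.

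CRYAB had log2 signals of 4.5, 4.0, 4.1 and 3.9 in large follicles, against 3.1, 3.1, 2.8, 3.3 and 3.0 in rounded and 2.9, 2.8, 2.9, 3.0 and 3.2 in columnar small healthy follicles. Every large follicle lay above every small healthy one, and 6 of the 10 small healthy signals were at or under 3, close to the limit used for detection. CRYAB would have entered the test without the large arrays, since 3 of 5 rounded follicles were over 3, but its fold is set against signals near that limit. The mean was 4.13 ± 0.26 (SD, n = 4) in large follicles and 3.01 ± 0.17 (SD, n = 10) in small healthy follicles, a log2 difference of 1.12 (SE 0.12, 95% interval 0.87 to 1.36, limma adjusted p = 3.21e-04) or 2.17-fold.

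HSPB8, a small heat shock protein that works with BAG3 in clearing misfolded proteins from muscle, had signals of 6.8, 6.1, 6.3 and 6.1 in large follicles, against 5.4, 5.3, 5.2, 5.3 and 5.0 in rounded and 5.0, 5.0, 5.5, 5.1 and 5.7 in columnar follicles. The gap between the lowest large and the highest small healthy follicle was 0.4. HSPB8 averaged 6.33 ± 0.33 (SD, n = 4) in large follicles and 5.25 ± 0.24 (SD, n = 10) in small healthy follicles, 2.11-fold higher (log2 difference 1.08, SE 0.15, limma adjusted p = 0.00175). Large 1 had the highest CRYAB and HSPB8 signals. Without it CRYAB was higher by 0.99 and HSPB8 by 0.92 on the log2 scale, both still past the test and both under the 2-fold limit, so that 1 member probe set was called.

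HSPB2, known in mammals as a partner of the myotonic dystrophy kinase DMPK in muscle, had signals of 4.7, 4.5, 4.7 and 4.6 in large follicles, against a range of 3.9 to 4.4 with a median of 4.1 in small healthy follicles. The groups were separated by 0.1, which is the step to which the signals were rounded. The log2 difference was 0.50 (SE 0.10, limma adjusted p = 0.0147), or 1.41-fold. Against the 5 rounded or the 5 columnar follicles alone HSPB2 was higher by 0.49 and 0.51, with adjusted p of 0.146 and 0.0582. CRYAB and HSPB8 passed in both of these fits.

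**Figure D1:**
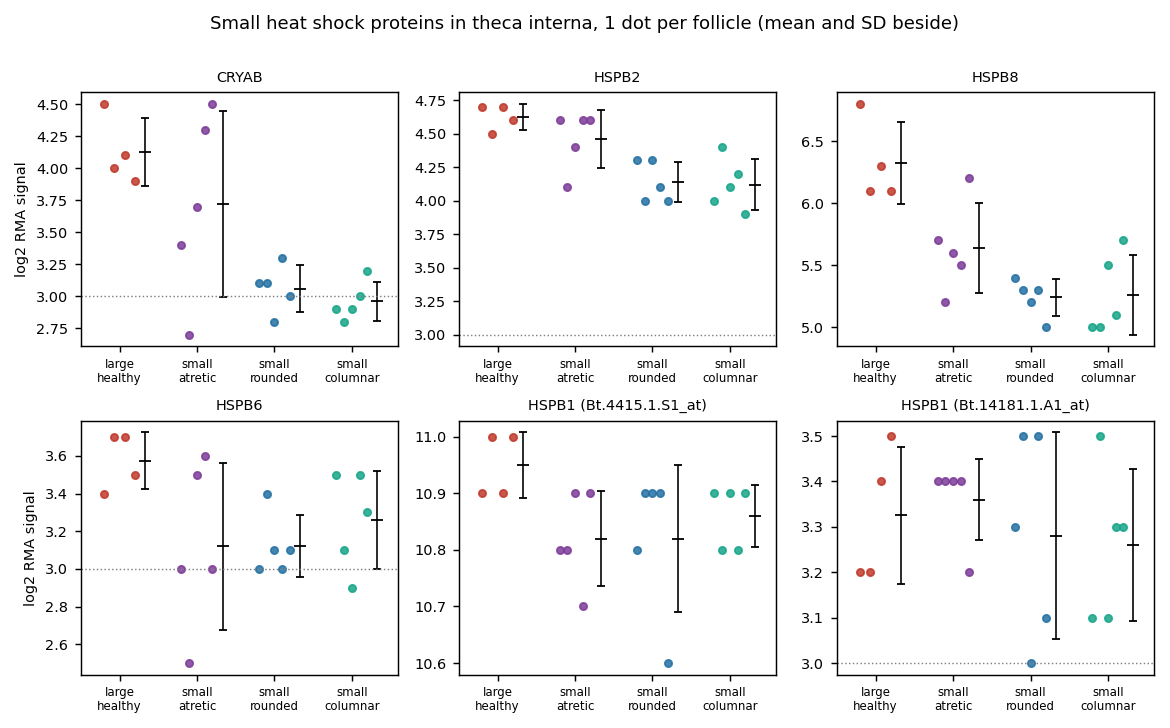
The log2 RMA signal of the small heat shock protein probe sets is plotted for each follicle (1 dot) in large healthy, small atretic, small healthy rounded and small healthy columnar follicles, with the mean and SD of each group as black marks and the detection limit of 3 as a dotted line. CRYAB, HSPB2 and HSPB8 of the 4 large follicles lie above all small healthy follicles, CRYAB of the 5 atretic follicles spreads from 2.7 to 4.5, and HSPB1 on Bt.4415.1.S1_at stays between 10.6 and 11.0.

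The other small heat shock proteins did not pass between large and small healthy follicles. HSPB6 (HSP20), a small heat shock protein of smooth muscle, had signals of 3.4, 3.7, 3.7 and 3.5 in large follicles, against a range of 2.9 to 3.5 in small healthy follicles. These groups overlapped, and the log2 difference of 0.39 had a limma adjusted p of 0.0845. HSPB1 was bright and nearly level on its first probe set (Bt.4415.1.S1_at), with 10.9 to 11.0 in large and 10.6 to 10.9 in small healthy follicles. The 95% interval of its log2 difference ran from -0.04 to 0.26 (limma adjusted p = 0.352), which leaves out a 2-fold change in either direction. The second HSPB1 probe set (Bt.14181.1.A1_at) was dim, with 3.2 to 3.5 in large and 3.0 to 3.5 in small healthy follicles.

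Some markers of smooth muscle and pericytes, which surround the vessels and lie in the outer theca, were also higher in large follicles. Of the 10 smooth muscle genes measured, 4 passed and were higher in large follicles and 0 were lower. They were DES (desmin, log2 difference 1.25), PLN (phospholamban, 1.17 and 0.70 on the passing probe sets), LMOD1 (0.72) and MYLK (myosin light chain kinase, 0.73 and 0.51). The mean signal over the 10 genes was 7.31 to 8.23 in large follicles and 6.61 to 7.55 in small healthy follicles. None of the 10 was below a signal of 3 on every array. Of the immediate early genes, which mark handling and stress, 0 of 10 passed, with a median log2 difference of 0.615 beside 0.715 for smooth muscle genes and a mean signal of 5.28 to 7.01 in large follicles and 5.41 to 6.28 in small healthy follicles. Of endothelial genes 1 of 7 (PECAM1), of immune genes 1 of 8 (AIF1) and of fibroblast genes 2 of 7 (COL1A1 and COL1A2) passed, all higher in large follicles. The other probe sets of PECAM1, COL1A1 and COL1A2 did not pass (log2 differences of 0.525, -0.035 and 0.26). The median log2 difference was 0.525 over the endothelial, 0.5425 over the immune and 0.19 over the fibroblast list, beside -0.005 over all probe sets. Of 8 granulosa genes NR5A2 was higher and AMH lower. FSHR, a granulosa marker, was over 3 on no array, but other genes of the list were bright. INHA averaged 10.3 in large and 9.9 in small healthy follicles, and SERPINE2 10.05 and 9.85. The mean signal over the 9 granulosa genes was 5.86 to 7.59 in large follicles and 5.94 to 6.91 in small healthy follicles. The granulosa genes CYP19A1 and INHBA differed by 1.495 and 1.04 without passing (limma adjusted p of 0.109 and 0.244), and the median over the list was 0.2775. The part of smooth muscle or other cells in the CRYAB, HSPB8 and HSPB2 differences was not tested.

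With the 4 group means taken out, the annotated genes whose signal was most like that of HSPB8 over the 19 arrays were LOC513055 (r = 0.92), for which the gene table lists RGS2 as another name, LMOD1 (r = 0.88) and TEK (r = 0.83), the endothelial receptor for angiopoietins. The genes most like CRYAB were REEP5 (r = 0.92), PTGES (r = 0.90), the prostaglandin E synthase, and MGST3 (r = 0.89), and the gene most like HSPB2 was PRNP (r = 0.86), which encodes the prion protein. These values are the top of 9710 probe sets searched, from arrays that share their group, and describe these libraries alone. CRYAB and HSPB8 had r = 0.67 (rho = 0.62) over the 19 arrays, with an adjusted permutation p of 0.069 over 153 pairs of member probe sets, and r = 0.41 without the 2 follicles farthest from the median. CRYAB and HSPB2, the neighbouring genes, had r = 0.40 (rho = 0.07, adjusted permutation p = 0.607).

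HSP90AA1 gave different results on its 2 probe sets. On Bt.23179.1.S1_at the signals were 6.8, 8.7, 8.7 and 8.3 in large follicles, against 7.0, 7.5, 7.1, 6.9 and 7.2 in rounded and 7.3, 6.7, 6.8, 6.5 and 7.1 in columnar follicles. Large 2, 3 and 4 lay above every small healthy follicle and large 1 lay among them. The mean was 8.13 ± 0.90 (SD, n = 4) in large follicles and 7.01 ± 0.30 (SD, n = 10) in small healthy follicles, a log2 difference of 1.12 (SE 0.28, 95% interval 0.52 to 1.71, limma adjusted p = 0.0404). This call did not hold in 15 of 26 alternatives, among them leaving out any of large 2, 3 or 4 (adjusted p of 0.0985, 0.136 and 0.142), and the difference was 1.56 without large 1. With the 2 arrays of highest CYP19A1, a granulosa gene, left out it was 0.96 (adjusted p = 0.129).

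On the other HSP90AA1 probe set, Bt.23179.1.S2_at, the signals were 10.8, 10.8, 10.6 and 10.2 in large follicles, against 10.2 to 11.0 with a median of 10.75 in small healthy follicles. The groups overlapped, and the interval of the log2 difference, -0.42 to 0.20, left out a 2-fold change in either direction (limma adjusted p = 0.663). The signal of Bt.23179.1.S1_at relative to Bt.23179.1.S2_at was higher in large than in small healthy follicles by 1.23 on the log2 scale, the gap between both differences. Within follicles of a type both probe sets had r = -0.21 (rho = -0.24, adjusted permutation p = 0.881). HSP90AB1, the constitutive form, was 11.1 to 11.2 in large and 11.1 to 11.3 in small healthy follicles (log2 difference -0.05, 95% interval -0.19 to 0.10).

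**Figure D2:**
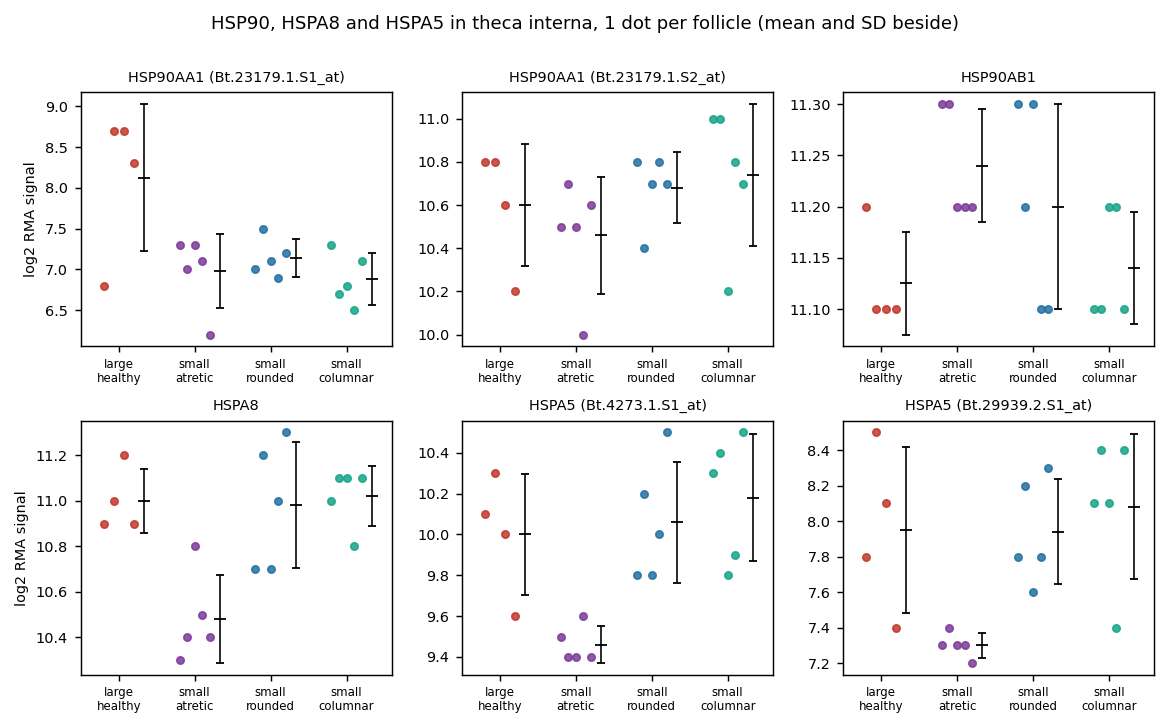
The log2 RMA signal of the HSP90AA1, HSP90AB1, HSPA8 and HSPA5 probe sets is plotted for each follicle (1 dot) by group, with the mean and SD as black marks. Bt.23179.1.S1_at of HSP90AA1 is high in large 2, 3 and 4 and not in large 1, and HSPA8 and both HSPA5 probe sets have their lowest mean in the 5 atretic follicles.

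Neither HSPA8 nor HSPA5 differed detectably between large and small healthy follicles. HSPA8 had a mean of 11.00 ± 0.14 (SD, n = 4) in large follicles and 11.00 ± 0.21 (SD, n = 10) in small healthy follicles, with a 95% interval of the log2 difference from -0.24 to 0.24. HSPA5 differed by -0.12 (interval -0.47 to 0.23) on Bt.4273.1.S1_at and by -0.06 (interval -0.50 to 0.38) on Bt.29939.2.S1_at. These intervals leave out a 2-fold change.

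In small atretic follicles the pattern differed from gene to gene, and 8 of 18 tested member probe sets passed against the same 10 small healthy follicles. Of these, 2 were higher (CRYAB and HSPB2) and 6 were lower (HSPA8, both HSPA5 probe sets tested and 3 of the 6 named HSPA1A). Over the whole array 4939 of 15470 probe sets passed (31.9%), 16.9% higher and 15.1% lower, beside 44.4% of the member probe sets. Calls with at least 2-fold change were made for 2 member probe sets, both lower and both named HSPA1A, beside 1.6% of the array. One of them, Bt.7035.2.S1_at, was under the detection limit in all atretic follicles and entered the test only through the columnar follicles, where it was high. It therefore adds no support to the counts of member probe sets passed, called or without overlap. With a detection limit of 4, 1 member probe set was called. Without overlap, 3 member probe sets lay below all small healthy follicles, beside 1.67%. They were the called pair, Bt.7035.1.S1_at and Bt.7035.2.S1_at, and Bt.4273.1.S1_at of HSPA5. The median log2 difference was -0.12 over the member probe sets and 0.01 over all probe sets. Both comparisons share the small healthy arrays.

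HSPA5 had signals of 9.5, 9.4, 9.4, 9.6 and 9.4 in atretic follicles on Bt.4273.1.S1_at, against 9.8 to 10.5 with a median of 10.1 in small healthy follicles. No atretic follicle reached the lowest small healthy one. The mean was 9.46 ± 0.09 (SD, n = 5) in atretic and 10.12 ± 0.29 (SD, n = 10) in small healthy follicles, a log2 difference of -0.66 (SE 0.13, limma adjusted p = 0.00343). On Bt.29939.2.S1_at HSPA5 had 7.3, 7.4, 7.3, 7.3 and 7.2 in atretic follicles, against 7.4 to 8.4 with a median of 8.1 in small healthy follicles. Here the groups met at 7.4, and the log2 difference was -0.71 (SE 0.15, adjusted p = 0.00454).

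HSPA8 had signals of 10.3, 10.4, 10.8, 10.5 and 10.4 in atretic follicles, against 10.7 to 11.3 with a median of 11.05 in small healthy follicles. Atretic 3 alone reached into the healthy range. The log2 difference was -0.52 (SE 0.11, limma adjusted p = 0.00456), or 1.43-fold lower. Against the rounded follicles alone HSPA8 and HSPA5 on Bt.4273.1.S1_at had differences of -0.50 and -0.60 with adjusted p of 0.0779 and 0.0523.

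CRYAB had signals of 3.4, 2.7, 3.7, 4.3 and 4.5 in atretic follicles, beside the small healthy range of 2.8 to 3.3, which lies at the detection limit of 3. Of the 5 atretic follicles 4 lay above every small healthy follicle and atretic 2 lay below all of them. CRYAB averaged 3.72 ± 0.72 (SD, n = 5) in atretic and 3.01 ± 0.17 (SD, n = 10) in small healthy follicles, a log2 difference of 0.71 (SE 0.21, limma adjusted p = 0.0213). The difference was 0.57 (adjusted p = 0.0628) without atretic 4 and 0.52 (adjusted p = 0.0745) without atretic 5. Against the rounded or the columnar follicles alone its adjusted p was 0.169 and 0.0617.

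HSPB2 had signals of 4.6, 4.1, 4.4, 4.6 and 4.6 in atretic follicles, beside 3.9 to 4.4 in small healthy follicles. It was higher by 0.33 on the log2 scale (SE 0.10, limma adjusted p = 0.0234), and no longer passed in 6 alternatives, among them leaving out atretic 1, 4 or 5 (adjusted p from 0.0580 to 0.0691). HSPB8 had 5.7, 5.2, 5.6, 5.5 and 6.2 in atretic follicles, beside 5.0 to 5.7 in small healthy follicles, and its log2 difference of 0.39 had an adjusted p of 0.0522. HSPB6, HSPB1, HSP90AB1 and both HSP90AA1 probe sets did not pass, with log2 differences from -0.25 to 0.09.

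**Figure D3:**
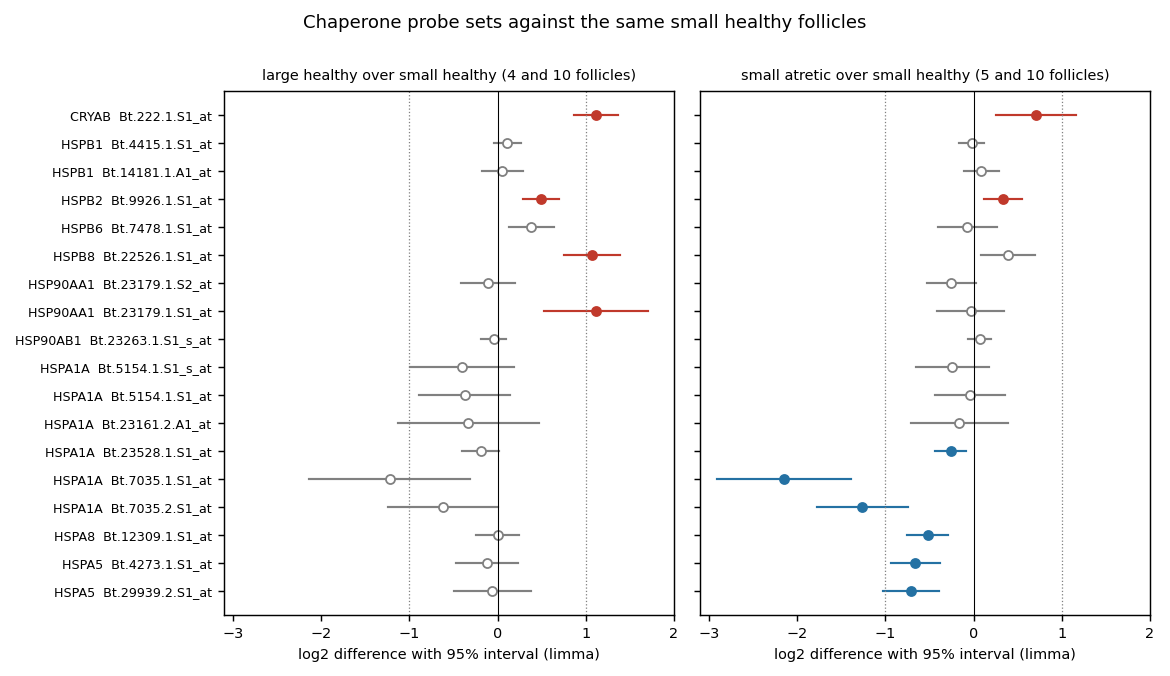
The log2 difference of each of the 18 tested member probe sets is plotted with its 95% interval from limma, large over small healthy follicles on the left and small atretic over small healthy follicles on the right, with filled red circles for those that passed and were higher, filled blue circles for those that passed and were lower and open grey circles for the others. Dotted lines mark 2-fold. On the left 4 probe sets are red and 0 are blue, and on the right 2 are red and 6 are blue, the lowest being Bt.7035.1.S1_at at -2.15.

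The 6 probe sets named HSPA1A did not behave as 1 gene. Bt.7035.1.S1_at had signals of 4.7, 4.8, 5.4, 5.4 and 4.7 in atretic follicles, against 6.0, 7.9, 6.3, 6.6 and 8.1 in rounded and 7.6, 7.8, 7.4, 6.0 and 7.8 in columnar follicles. All atretic follicles lay below all small healthy ones. Its mean was 5.00 ± 0.37 (SD, n = 5) in atretic and 7.15 ± 0.83 (SD, n = 10) in small healthy follicles, 4.44-fold lower (log2 difference -2.15, SE 0.36, limma adjusted p = 0.00185). Bt.7035.2.S1_at had signals of 2.1 to 2.4 in all 5 atretic follicles, under the detection limit, and of 2.8 to 4.2 in small healthy follicles, 6 of 10 of them over 3. It entered the test only through the columnar follicles, 4 of 5 of which were over 3, so that its measured difference of -1.26 on the log2 scale (limma adjusted p = 0.00298) adds no support to that of Bt.7035.1.S1_at.

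Bt.5154.1.S1_s_at, Bt.5154.1.S1_at and Bt.23161.2.A1_at of HSPA1A overlapped between atretic and small healthy follicles and did not pass. Bt.5154.1.S1_s_at had signals of 8.4, 8.3, 8.7, 8.3 and 8.5 in atretic follicles, against 8.1 to 9.4 with a median of 8.65 in small healthy follicles, and its log2 difference was -0.24 (95% interval -0.65 to 0.17, limma adjusted p = 0.346). Bt.5154.1.S1_at and Bt.23161.2.A1_at differed by -0.04 and -0.16. The sixth, Bt.23528.1.S1_at, overlapped too and was lower, with a log2 difference of -0.26 (SE 0.08, adjusted p = 0.0275) and no longer passed in 5 alternatives.

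Between large and small healthy follicles no HSPA1A probe set passed. Bt.7035.1.S1_at had signals of 6.0, 6.6, 6.2 and 4.9 in large follicles, with a log2 difference of -1.23 (95% interval -2.14 to -0.31, limma adjusted p = 0.113). On Bt.5154.1.S1_s_at large 1 had 9.3 while large 2, 3 and 4 had 7.9, 8.0 and 7.9, and it was also the highest large follicle on Bt.5154.1.S1_at (9.0, the others 7.9 to 8.1) and Bt.23161.2.A1_at (9.3, the others 6.9 to 8.3). The log2 differences of these 3 probe sets were -0.41, -0.38 and -0.33.

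**Figure D4:**
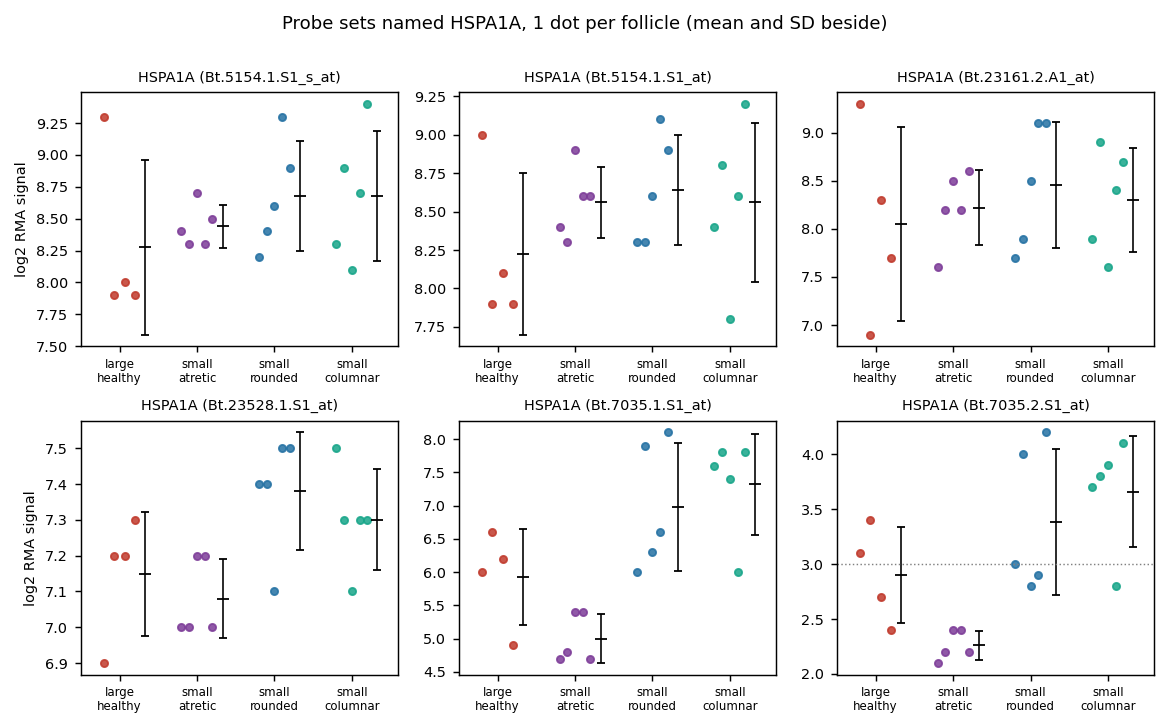
The log2 RMA signal of the 6 probe sets named HSPA1A is plotted for each follicle (1 dot) by group, with the mean and SD as black marks and the detection limit of 3 as a dotted line. The 5 atretic follicles lie below all small healthy follicles on Bt.7035.1.S1_at and Bt.7035.2.S1_at and among them on Bt.5154.1.S1_s_at, Bt.5154.1.S1_at and Bt.23161.2.A1_at.

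The same division appeared between follicles of 1 type. With the group means taken out, Bt.5154.1.S1_s_at and Bt.23161.2.A1_at had r = 0.84 (rho = 0.88, adjusted permutation p = 0.00255 over 153 pairs). Bt.7035.1.S1_at and Bt.7035.2.S1_at had r = 0.93 (rho = 0.90, adjusted permutation p = 0.00643). Bt.7035.2.S1_at was over 3 on only 0 of 5 atretic and 2 of 4 large arrays, so much of this relation lies near or under the detection limit. Bt.7035.1.S1_at and Bt.5154.1.S1_s_at had r = 0.15 (rho = 0.11, adjusted permutation p = 0.922). In all, 11 of the 153 pairs passed by the adjusted permutation p of r, which is the p given beside each r and rho. Apart from HSP90AB1 with Bt.23528.1.S1_at, each of them joined probe sets of 1 gene symbol or included Bt.7035.1.S1_at or Bt.7035.2.S1_at. Bt.7035.1.S1_at varied with HSPA8 (r = 0.81, rho = 0.81, adjusted permutation p = 0.0079) and with HSPA5 on Bt.29939.2.S1_at (r = 0.88, rho = 0.88, adjusted permutation p = 0.00535), and these relations had r = 0.83 and r = 0.79 without the 2 follicles farthest from the median. A further pair that passed on r, HSP90AB1 with Bt.23528.1.S1_at of HSPA1A, ran in opposite directions (r = -0.73, rho = -0.64, adjusted permutation p = 0.026). By rank its adjusted permutation p was 0.053, as it was for Bt.7035.2.S1_at with either HSPA5 probe set, so these pairs did not pass on rho.

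The annotated genes most like Bt.7035.1.S1_at, which was singled out after its values were seen, were MELK (r = 0.99), a kinase, DTYMK (r = 0.99), which makes a precursor of DNA, and LMNB1 (r = 0.99), which encodes lamin B1. These genes were also lower in atretic than in small healthy follicles, with log2 differences of -2.17 for MELK, -1.66 for DTYMK and -1.88 for LMNB1 (limma adjusted p of 0.00305, 0.00516 and 0.00208), and each lay below all small healthy follicles without overlap. The genes most like HSPA5 on Bt.4273.1.S1_at were PTMA (r = 0.94), HNRNPD (r = 0.94) and NASP (r = 0.93), a histone chaperone, and those most like HSPA8 were MTCH2 (r = 0.95), SOCS4 (r = 0.94) and UQCRQ (r = 0.93). The genes most like the brightest HSPA1A probe set, Bt.5154.1.S1_s_at, were RSRP1, HOOK2 and ZBTB1 (r = 0.80, 0.76 and 0.76). The gene table places Bt.7035.1.S1_at, Bt.7035.2.S1_at, Bt.23161.2.A1_at and Bt.23528.1.S1_at under the HSPA1A gene ID in use. It places Bt.5154.1.S1_s_at and Bt.5154.1.S1_at under another ID. The IDs do not follow the division, since Bt.23161.2.A1_at varied with Bt.5154.1.S1_s_at (r = 0.84) more than with Bt.7035.1.S1_at (r = 0.11). HSPA1A belongs to a family of near-identical genes. Which of the 6 probe sets detects which transcript was not tested.

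A wider list of 82 other chaperones and stress regulators was described in the same way, of which 65 were on the array and 63 were tested. Between large and small healthy follicles 2 passed, both higher, HSPA4 (a nucleotide exchange factor of HSP70, log2 difference 0.44, limma adjusted p = 0.0359) and EIF2AK3 (PERK, a sensor of the unfolded protein response, 0.39, adjusted p = 0.0383), and 61 did not. These were 2 of 76 probe sets, a share close to the 2.59% of the array that passed and was higher, and the median over the 76 was -0.09.

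In atretic follicles 18 of the 63 genes were lower, 8 were higher and 37 did not pass. Of the chaperones of the endoplasmic reticulum 7 of 9 genes were lower and 1 was higher, with a median log2 difference of -0.61, beside 0.01 over all probe sets and the 15.1% of the array that was lower. MANF, a small protein of the endoplasmic reticulum that binds HSPA5, was the only called gene of the wider list, at 8.14 ± 0.23 (SD, n = 5) in atretic and 9.28 ± 0.48 (SD, n = 10) in small healthy follicles (log2 difference -1.14, SE 0.21, limma adjusted p = 0.00248). HSP90B1 (GRP94), the HSP90 of this compartment, was 9.10 ± 0.12 (SD, n = 5) in atretic and 9.83 ± 0.19 (SD, n = 10) in small healthy follicles (log2 difference -0.73, adjusted p = 0.00135). The other lower genes were CALR (calreticulin, log2 difference -0.95), CRELD2 (-0.86), PDIA4 (-0.84 and -0.46 on its passing probe sets), PDIA3 (-0.49) and CANX (calnexin, -0.32). ERP29 was higher by 0.35, and SDF2L1 did not pass (-0.18). HYOU1, the exchange factor of HSPA5, was also lower (-0.72) and SIL1, another such factor, higher (0.50).

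The remaining groups of the wider list had fewer changed genes. Over the array 16.9% of probe sets passed and were higher in this comparison, and 15.1% were lower. The J proteins (2 higher and 1 lower of 15 probe sets) and the further HSP70 and HSP110 genes (1 lower of 7) were not above these shares. Of 11 HSP90 partners 4 were lower and 0 higher, led by STIP1 (HOP, log2 difference -0.62, limma adjusted p = 0.00432), which links HSP70 to HSP90. Of 6 subunits of the cytosolic chaperonin CCT5 (-0.57) and CCT6A (-0.58) were lower. Of 4 mitochondrial chaperones HSPD1 (HSP60, -0.46) was lower. Of 4 regulators of the unfolded protein response DDIT3 (CHOP, 0.51) and HERPUD1 (0.70) were higher, and ATF4 (0.10) and EIF2AK3 (-0.01) did not pass. Of 3 heat shock factor genes HSF4 (0.69) and HSF1 (0.25) were higher. Of 12 J proteins DNAJB2 (0.49) and DNAJB9 (0.24) were higher and DNAJB11 (-0.38), which works with HSPA5, lower. HSPA4 (-0.35), 1 of 5 further HSP70 and HSP110 genes, and CRYAA (αA-crystallin, -0.20) were lower.

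**Figure D5:**
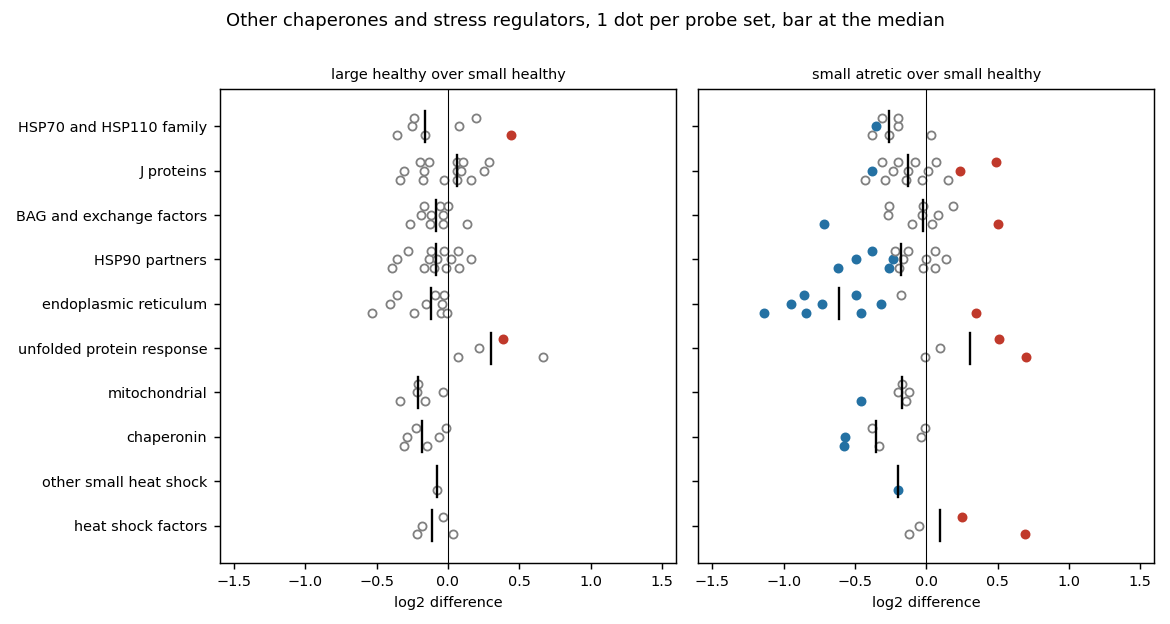
The log2 difference of each tested probe set of the wider list of chaperones and stress regulators is plotted by group of genes, large over small healthy follicles on the left and small atretic over small healthy follicles on the right, with filled red dots for higher and filled blue dots for lower probe sets that passed, open dots for the others and a black bar at the median. Vertical offsets within a row only separate the dots. On the right 8 of 10 probe sets of the endoplasmic reticulum are blue, with a median of -0.61, and on the left 2 probe sets of the whole list are red.

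Some markers of other cell types, and immediate early genes, also differed in the atretic follicles. All 8 immune marker genes were higher, with a mean signal of 5.21 to 6.54 in atretic and 3.95 to 5.18 in small healthy follicles, led by CD68 (log2 difference 2.70) and CD14 (2.24 and 1.26). Of the 10 immediate early genes tested 7 were higher, such as FOS (1.65 and 1.64), with a mean signal of 5.85 to 6.87 in atretic and 5.41 to 6.28 in small healthy follicles. Of 10 smooth muscle genes 5 were higher (6.88 to 7.88 in atretic and 6.61 to 7.55 in small healthy follicles). Of 6 steroidogenic genes CYP11A1, the enzyme that starts steroid synthesis in thecal cells, was lower (log2 difference -1.31) and 5 did not pass. Of 6 granulosa genes tested INHBA (-1.47) and AMH (-0.97) were lower and 4 did not pass. Of 7 endothelial genes FLT1 (-0.4) was lower and 6 did not pass, with a median log2 difference of -0.15 over the list. Of 7 fibroblast genes PDGFRA (0.81) was higher and 6 did not pass, with a median of 0.03. The part of these cells in the chaperone differences was not tested.

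Small atretic and large healthy follicles were set side by side directly. Of 15326 probe sets 0 passed in limma (0%), 2763 (18%) had an unadjusted p under 0.05, and 0 passed without moderation of the variances, where 2548 had an unadjusted p under 0.05. Of the member probe sets 7 of 18 had an unadjusted p under 0.05. HSPA8 was 10.48 ± 0.19 (SD, n = 5) in atretic and 11.00 ± 0.14 (SD, n = 4) in large follicles, without overlap (log2 difference -0.52, limma adjusted p = 0.141), beside 1.36% of the array that lay lower without overlap. HSPA5 differed by -0.54 on Bt.4273.1.S1_at (adjusted p = 0.141), HSPB8 by -0.69 (adjusted p = 0.167), Bt.23179.1.S1_at of HSP90AA1 by -1.15 (adjusted p = 0.192) and CRYAB by -0.41 (95% interval -1.15 to 0.34, adjusted p = 0.538). In the order of mean signals CRYAB thus ran from large through atretic to small healthy follicles, and its large and atretic neighbours did not differ beyond their spread.

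No member passed between rounded and columnar small healthy follicles. None of the 15570 probe sets passed in limma (0%), with 360 (2.31%) at an unadjusted p under 0.05, and 0 of 18 member probe sets reached that level. Without moderation of the variances 416 did. CRYAB was 3.06 ± 0.18 (SD, n = 5) in rounded follicles, and 2.96 ± 0.15 (SD, n = 5) in the columnar ones, and HSPB8 5.24 ± 0.15 (SD, n = 5) in rounded follicles, and 5.26 ± 0.32 (SD, n = 5) in columnar follicles. Bt.7035.1.S1_at of HSPA1A spread over 2.1 log2 units among the rounded and 1.8 among the columnar follicles.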

How the data were processed

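RNA of the theca interna was measured on 19 arrays, 1 follicle each, with groups and replicate numbers from the sample records. The authors used RMA and quantile normalization in Partek (version 6.5 per the submitters' processing notes) and deposited log2 signals with 1 decimal. RMA compresses the differences of dim probe sets. Whether all arrays were normalized together, and the genome build of the annotation, are not given in the sources used here. Of the probe sets 13317 have 1 symbol, 86 several and 10724 none. The 111 control probe sets were left out. For 17 of the 19 member probe sets the gene ID was found in the RefSeq table of ARS-UCD2.0, with the same symbol.

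Groups were compared with lmFit and eBayes of limma 3.58.1 under R 4.3.3. Large and small atretic follicles were each compared with the 10 small healthy ones, atretic with large, and rounded with columnar in a fit with the large arrays. Alternatives changed the filter, the fold limit, the treatment of variances, the weighting, centring or fitting of arrays and the small healthy type used, added the replicate number as a block, or left out follicles. Correlations used 100000 permutations within groups. The sample records name Trizol with RNeasy columns for large, RNeasy mini columns for small healthy and RNAqueous Micro columns for atretic follicles, and 2 to 5 µg of RNA for labelling, or 250 ng for atretic follicles. The paper describes a single procedure. Nothing says that each follicle came from a separate animal, so p-values measure only how far these follicles vary. Precision is limited by how many arrays there are (for large against small healthy follicles, the 95% intervals reached 0.27 to either side at the median).

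The members, gene lists, tests and alternatives were chosen with earlier results of these data known. The genes named are all members, the called genes of the wider chaperone list (or the 4 with the smallest p) and the 3 genes most like the brightest probe set of a member. The further list genes, the markers named, PRNP alone for HSPB2 and the genes like Bt.7035.1.S1_at were chosen after their values were seen. On simulated data with 200 changed probe sets, 63.8%, 92.6% and 98.4% of 1.5-, 2.5- and 4-fold changes passed between large and small healthy follicles (15570 probe sets). The shares were 58.9%, 98.4% and 98.5% between atretic and small healthy follicles (15470 probe sets). Between atretic and large follicles they were 35.3%, 87.5% and 91.2% (15326 probe sets). The simulated noise was independent for each probe set, whereas measured probe sets vary together, so these shares do not give the power on the real arrays. No sequences were used here.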

Additional observations from a re-analysis of the deposited data

Results flagged for a closer look

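Of 95 sets of 4 to 10 follicles examined, 11 had 1 follicle apart from the rest by Dixon's gap test, where chance gives about 1 in 20, and signals rounded to 1 decimal make such gaps coarse. HSPA1A on Bt.5154.1.S1_s_at was 9.3 in large 1 and 7.9 to 8.0 in the other large follicles. Large 1 also had HSP90AB1 at 11.2, the others being at 11.1. Among atretic follicles, HSP90AA1 on Bt.23179.1.S1_at was 6.2 in atretic 5 and 7.0 to 7.3 in the others, HSP90AA1 on Bt.23179.1.S2_at was 10 in atretic 4 and 10.5 to 10.7 in the others, and HSPB1 on Bt.14181.1.A1_at was 3.2 in atretic 5 and 3.4 in the others. Among rounded follicles, rounded 2 had HSPB6 at 3.4 (the others 3.0 to 3.1) and HSP90AA1 on Bt.23179.1.S2_at at 10.4 (the others 10.7 to 10.8), and rounded 3 had HSPA1A on Bt.23528.1.S1_at at 7.1 (the others 7.4 to 7.5). Among columnar follicles, columnar 4 had HSPA1A on Bt.7035.1.S1_at at 6.0 (the others 7.4 to 7.8). Among the 10 small healthy follicles, HSPB1 on Bt.4415.1.S1_at was 10.6 in rounded 5 (the others 10.8 to 10.9) and HSPA5 on Bt.29939.1.S1_at was 2.9 in columnar 3 (the others 2.6 to 2.7).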

How the results depend on the processing

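CRYAB and HSPB8 between large and small healthy follicles passed in all 26 alternatives, and no result that passed changed direction in any alternative. Members are counted in this section as probe sets. Between large and small healthy follicles the numbers of probe sets passed and called over the array were 557 and 110. They were 18 and 12 against rounded follicles alone, where 2 members passed, 339 and 54 without moderation of the variances, and 159 and 59 with 2 arrays left out in which CYP19A1, a granulosa gene, was highest. The number passed was 258 against columnar follicles alone, where 2 members passed, and 1078 with array weights, and the number called was 317 at a 1.5-fold limit. Leaving out 1 follicle at a time gave 154 to 982 passed and 54 to 162 called, both lowest without large 4, and 3 to 4 members passed and 1 to 3 called. Between atretic and small healthy follicles 4939 passed and 569 were called. Against rounded follicles alone 244 passed and 151 were called, with 2 members passed and 1 called, and against columnar follicles alone 5 members passed. At a 1.5-fold limit 1783 were called, 5 of them members, and 1 member was called with a detection limit of 4. Leaving out 1 follicle gave 2978 to 5690 passed and 444 to 706 called, both lowest without atretic 5, with 5 to 9 members passed and 2 called. Between atretic and large follicles a fit of all 4 groups gave 123 passed and 43 called, and leaving out 1 follicle gave 0 to 125 passed and 0 to 92 called, with 0 to 3 members passed and 0 to 1 called. Rounded against columnar follicles stayed at 0. The fits against rounded or columnar follicles alone have fewer arrays. The cause of the other changes was not tested.

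Same-numbered follicles of different groups showed no common deviation at the median, with correlations from -0.35 to 0.57 (median 0.02) over 27 pairs. Of the 19 arrays 5 correlated best with their own number. The numbers were treated as names of samples, but this check cannot exclude that some same-numbered follicles shared an animal or a batch. With the replicate number as a block, 341 passed and 77 were called between large and small healthy follicles, 3 and 2 of them members, and HSP90AA1 on Bt.23179.1.S1_at had a log2 difference of 1.15 and an adjusted p of 0.0670. The block gave 4777 passed and 564 called between atretic and small healthy follicles, 8 and 2 of them members, and 0 in the other comparisons.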
